A study of Mus musculus with 24 samples.

Results

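The genes described here are 10 mouse genes of retinoic acid supply, breakdown, binding and response: Aldh1a2, Cyp26a1, Cyp26b1, Cyp26c1, Stra6, Crabp2, Rara, Rarb, Rarg and Stra8. Their chromatin was read by ATAC-seq: a transposase, Tn5, cuts DNA where chromatin is open, so the values are accessibility and no RNA was measured. The cells, E14 embryonic stem cells of the mouse, were kept on gelatin in serum and leukemia inhibitory factor. There were 3 lines, wild type (WT) and the Smad2 knockout lines Smad2_KO1 and Smad2_KO2, each in 4 untreated libraries (Ctrl) and 4 libraries after 12 hours in 200 nM INK128, an mTOR inhibitor (Paused), which made 24 libraries. The labels used here say neither how the knockout lines were derived nor whether the 4 libraries of a group came from separate cultures, so the p-values measure the spread between these libraries, which may be technical. An interval was counted if it overlapped a gene body extended by 30 kb on each side. That gave 234 of 299780 intervals in Ctrl and 222 of 272268 in Paused, each 201 bases wide. The list was chosen by a measured value: an interval nearest Cyp26b1 was among the largest gains of the Ctrl knockouts, which used the knockout and WT values of the Ctrl libraries. Ctrl differences between knockout and WT are therefore given as a description, as values and as counts past the threshold used in Paused, and nothing is read from them. The tests reported are those in the Paused libraries.

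Retinoic acid is made from retinol. Stra6 takes up retinol from its carrier protein, Aldh1a2 oxidises retinaldehyde to retinoic acid, Crabp2 carries the acid to the nucleus, and the Cyp26 enzymes oxidise it for removal. In the nucleus it binds the receptors Rara, Rarb and Rarg, which pair with the retinoid X receptors on direct repeats of a short half-site. In embryonic stem cells retinoic acid is a strong differentiation signal. Rarb and Cyp26a1 are classic direct targets of it, and Stra8 is a target needed for entry into meiosis in germ cells. Smad2 transduces Nodal and activin signals.

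The promoters of Rarb and Cyp26a1 are printed because they alone among the 16 annotated member starts (9 genes) held a receptor direct repeat in the 250 bases upstream. The half-sites searched on both strands were AGGTCA, then AGTTCA, then GGGTCA, then GGTTCA, in pairs with 1, 2 or 5 bases between. Sequences are from RefSeq (GRCm38.p6), 5′ to 3′ on the gene's strand and ending at the base before the annotated start, with the repeat in capitals. The Rarb stretch is chr14:16575477-16575726 (minus strand), with the repeat at positions -53 to -37 from the start. The Cyp26a1 stretch is chr19:37697558-37697807 (plus strand), with the repeat at -32 to -16.
Rarb: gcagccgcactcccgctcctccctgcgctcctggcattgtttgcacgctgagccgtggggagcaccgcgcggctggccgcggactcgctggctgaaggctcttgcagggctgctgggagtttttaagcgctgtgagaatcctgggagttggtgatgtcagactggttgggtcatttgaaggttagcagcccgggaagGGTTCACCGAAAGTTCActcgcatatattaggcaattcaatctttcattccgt
Cyp26a1: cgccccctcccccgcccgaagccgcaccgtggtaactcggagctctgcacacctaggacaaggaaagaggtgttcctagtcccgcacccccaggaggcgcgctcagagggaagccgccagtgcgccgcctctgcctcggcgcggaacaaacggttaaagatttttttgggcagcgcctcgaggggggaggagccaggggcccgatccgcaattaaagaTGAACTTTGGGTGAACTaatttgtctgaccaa
Both are repeats with 5 bases between, which 29 of 32851 promoters (0.0883%) held. Repeats with 1 or 2 bases between stood in 0.164% and 0.174% of promoters and in none of the members'. The Smad palindrome GTCTAGAC (0.167% of promoters) and the Foxh1 sites AATCCACA or its variant AATACACA (1.61%) were likewise not among the letters of the member promoters. A match describes the letters only.

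Libraries held 11.8 to 16.5 M reads in intervals in Ctrl and 11.5 to 20.0 M in Paused. The strongest interval at Smad2 read 301 to 410 in Ctrl and 336 to 534 in Paused and was not called, which does not test the knockouts, since the labels give no position for the deletion. Each of the 8 embryonic stem cell markers had an interval in or within 1000 bases of the gene, as had each marker of primitive endoderm, mesendoderm, neuroectoderm, trophoblast and germ line, so the presence of an interval did not tell the cell types apart. In Paused, Klf4 among the stem cell markers was called higher, and T (mesendoderm) and Nes (neuroectoderm) lower. The Nes interval is also counted in the Crabp2 window, so it is not separate from the member results. Any part of Klf4 and T in the member results was not tested. In Paused the libraries Smad2_KO1 replicate 2 and Smad2_KO2 replicate 2 differed by about as much as counting noise alone gives (chi-square per degree of freedom 1.0014, noise limit 1.0055), and results are given without both where that matters. Other same-numbered pairs of the knockout lines were nearly as alike, at up to 1.0738, so a call in both clones may not be support from independent libraries.

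In Paused, the member intervals that rose in the knockouts were mostly weak ones and those that fell mostly strong ones. Distances below are from the nearest annotated start and negative upstream. Of 217 intervals with enough reads to test (at least 4 libraries at 10 or more normalized reads), 37 were called in both clones, meaning that each clone differed from WT with the same sign at an adjusted p under 0.05 by limma. That was 17.1% of the members, beside 13.9% of all tested intervals. Among the calls 20 were higher and 17 lower, where 9.01% of all intervals were called higher and 4.92% lower. The intervals that rose had a median of 29.9 normalized reads and those that fell 94.2, which is also how all called intervals lay (medians of 25.6 and 89.1). A larger share of cells with an open site and a more open site per cell cannot be told apart in these bulk libraries.

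The split by direction depended on the scaling. With DESeq2 size factors 12 of 39 calls were higher, with TMM factors 13 of 40, with library totals 21 of 35, and with edgeR's quasi-likelihood test on recovered reads 9 of 37, and with DESeq2's Wald test on them 3 of 27. The median log2 change of all intervals was 0.12 with the authors' scaling, 0.02 with DESeq2 size factors, 0.03 with TMM and 0.15 with library totals. The median member change was 0.03 on the authors' scale. All 8 knockout libraries lay on 1 side of all 4 WT libraries at 26 tested member intervals (12.0%), beside 11.5% of all intervals. Among calls this held for 22 of the 37 members, beside 22617 of all 36293 calls, so the members were not set apart by it. As a description only, 15 of 226 Ctrl member intervals were past the same threshold, 7 higher and 8 lower (7.15% of all intervals were), in the libraries that chose the list.

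**Figure D1:**
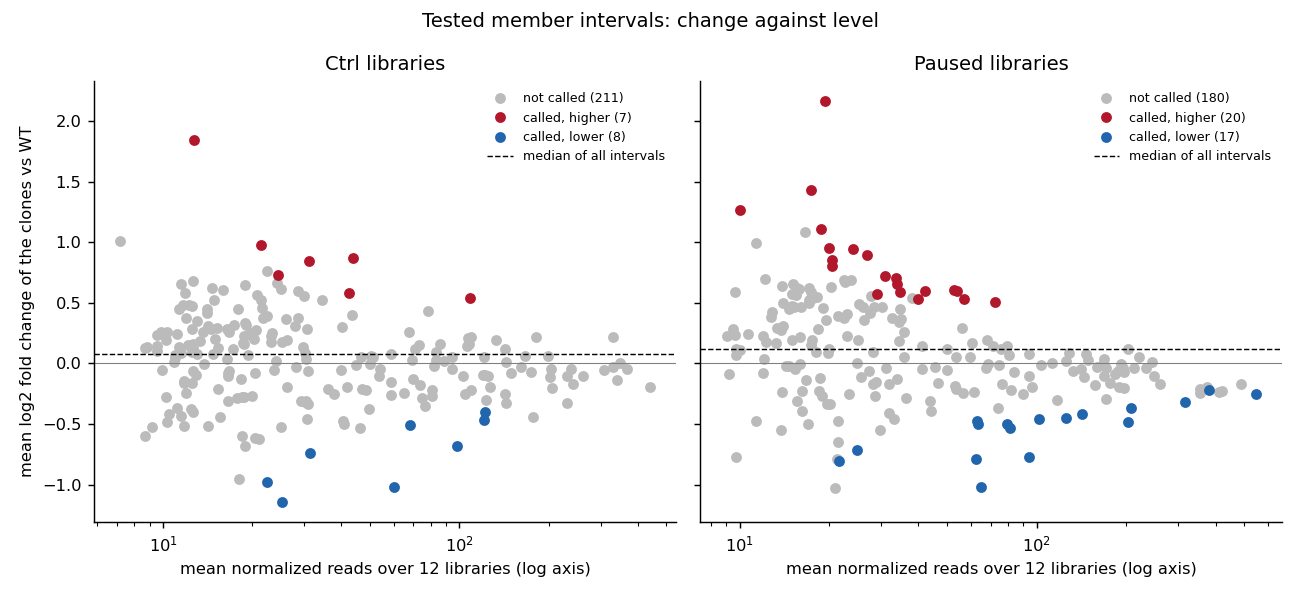
Mean log2 fold change of the clones against WT for each tested member interval, by its mean normalized reads over 12 libraries (log axis), in Ctrl (left) and Paused (right). Red and blue points were called in both clones and the dashed line is the median of all intervals. In Paused the 20 higher calls had a median level of 29.9 and the 17 lower calls one of 94.2.

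The 12 refits that each left out 1 library together kept 12 of the 37 Paused calls, 5 higher and 7 lower, and 10 of these also held in each of 12 other settings, scalings included. The 10 were 3 at Rara, 3 in the Stra6 window, 2 in the Crabp2 window, 1 at Rarb and 1 in the Stra8 window. These intervals carry the account below. How many of all 36293 Paused calls held likewise was not counted, so holding does not set the members apart. The whole count fell to 24 without Smad2_KO1 replicate 1, to 24 without Smad2_KO1 replicate 2 and to 23 without Smad2_KO2 replicate 2, and to 17 without both replicates 2.

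**Figure D2:**
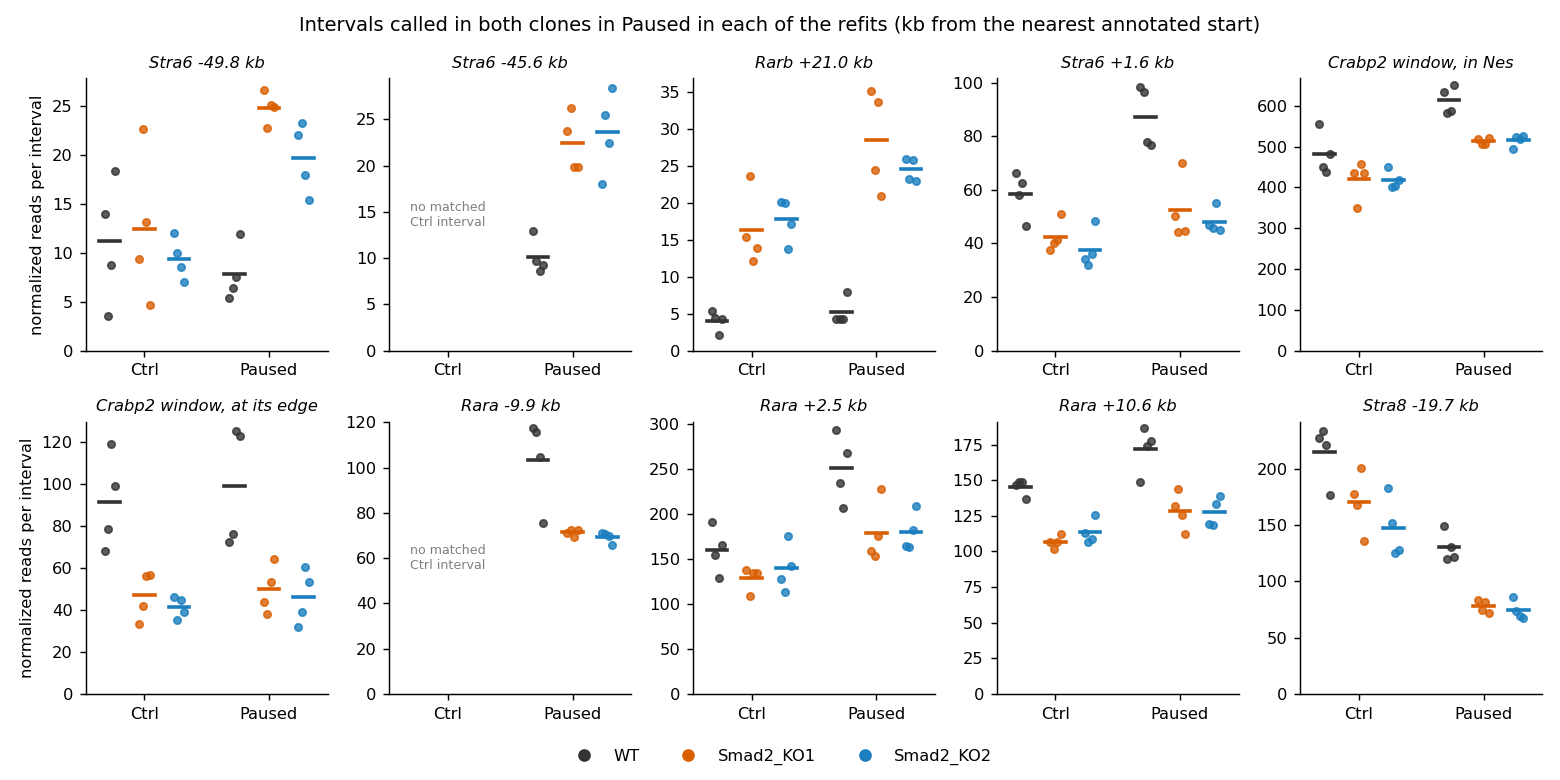
Normalized reads per interval in each library (points) with the group mean (bar), for the 10 Paused intervals that held in all these refits and for the matched Ctrl interval where there was one. Distances are from the nearest annotated start. At Rarb +21.0 kb the Paused WT libraries sat between 4.29 and 7.95 and the knockout libraries between 20.86 and 35.16.

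Summed over each gene window, 4 of 10 genes were called in Paused, beside 28.5% of all gene windows. Crabp2, Rara and Rarg fell (21.7% of windows were called lower) and Rarb rose (6.82% higher). WT libraries averaged 2811 ± 137 (SD, n = 4) at Crabp2, Smad2_KO1 libraries 2484 ± 47.1 and Smad2_KO2 libraries 2447 ± 79.6, a log2 change of -0.18 and -0.20 (limma, adjusted p = 0.00079 and 0.000173). Rara averaged 3506 ± 210, 3134 ± 21.7 and 3057 ± 155 (-0.16 and -0.20, limma, adjusted p = 0.00243 and 0.000232). For Rarg the means were 3012 ± 123, 2699 ± 118 and 2683 ± 128 (-0.16 and -0.17, limma, adjusted p = 0.00286 and 0.00152). In all 3 windows every knockout library lay below every WT library, and all 3 calls held on leaving out each library and under each scaling. How many of all gene windows did the same was not counted, so this does not set the 3 apart. Windows hold other genes too: Nes, Isg20l2, Mrpl24 and Rrnad1 beside Crabp2, Wipf2, Cdc6, Gjd3, Gm46294 and Top2a beside Rara, and Csad, Zfp740, Itgb7 and Mfsd5 beside Rarg.

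The Rarb window averaged 1115 ± 51.9 for WT, 1247 ± 77.3 for Smad2_KO1 and 1258 ± 28.5 for Smad2_KO2 (0.16 and 0.17, limma, adjusted p = 0.00948 and 0.00451). This rise did not hold in limma with DESeq2 size factors (mean change 0.06, higher adjusted p of 0.38) or with TMM factors (0.08 and 0.283). Without Smad2_KO1 replicate 1 the higher adjusted p was 0.0689. The median over all windows was -0.05 with the authors' scaling and -0.15 with DESeq2 size factors. The windows of Aldh1a2, Cyp26a1, Cyp26b1, Cyp26c1, Stra6 and Stra8 were not called, and their mean changes in the 2 clones lay between -0.07 and 0.06. With DESeq2 size factors the windows of Cyp26a1, Cyp26c1 and Stra6 were also called lower. Under that setting about 10940 of all 20561 gene windows were called in either direction. In the Ctrl libraries, again only as a description, 0 of 10 windows were past the threshold by limma (8.58% of all windows were), and 2 were at an unadjusted p under 0.05 in both clones. By edgeR 1 was past it, beside 3110 of all 20677 windows, and by DESeq2's Wald test 4, beside 5314 of them.

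**Figure D3:**
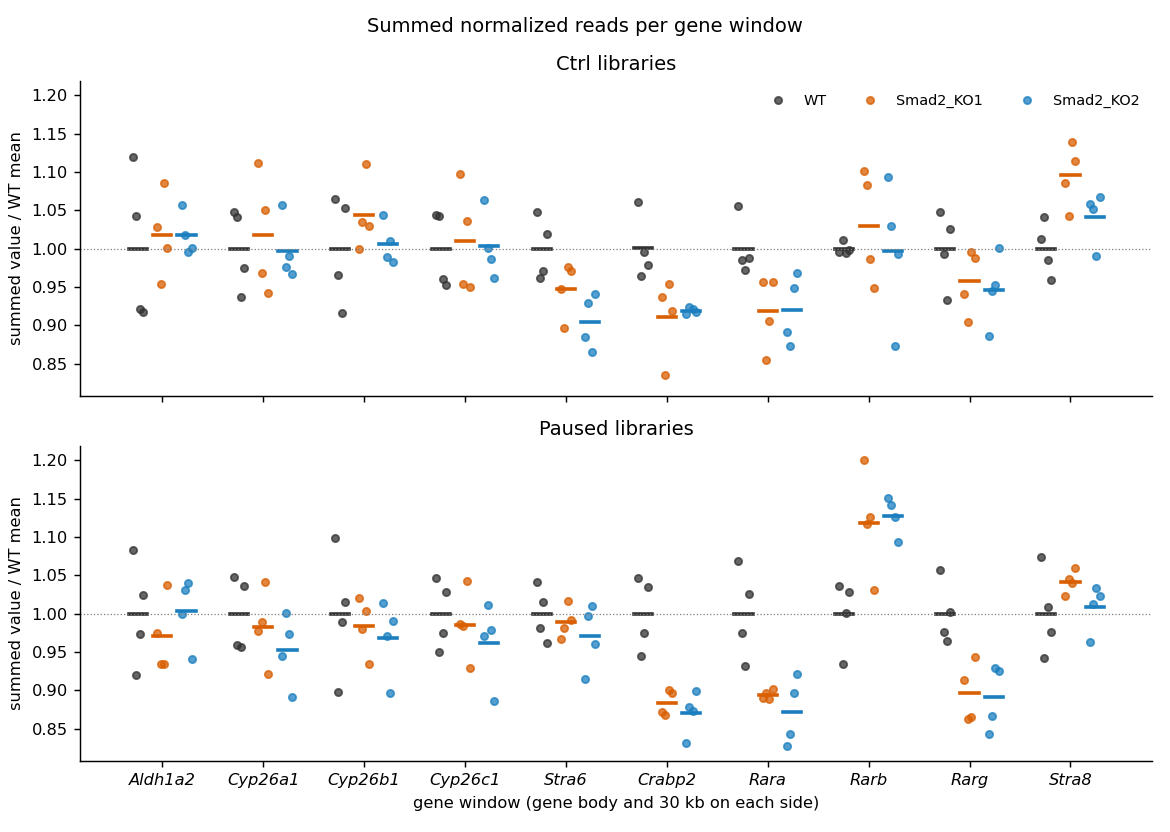
Summed normalized reads of each gene window divided by the WT mean of its table, per library (points) with group means (bars), for Ctrl (top) and Paused (bottom). In Paused all knockout libraries lay below all WT libraries at Crabp2, Rara and Rarg, which was not counted over all gene windows. The Rarb means were above WT in both clones on the authors' scaling.

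Aldh1a2, the synthesis enzyme, had 13 Paused intervals, of which 4 rose and 1 fell. Its window sum was not called, at 806 ± 55.8 for WT, 782 ± 39.5 for Smad2_KO1 and 808 ± 36.3 for Smad2_KO2, and its start interval (chr9:71215229-71215429) read 168, 156 and 177. The firmest rise was at chr9:71303674-71303874, 88.0 kb downstream of the start and outside the gene. There the WT libraries read 42.1, 35.42, 46.39 and 35.76, the Smad2_KO1 libraries 63.66, 62.53, 56.15 and 68.53, and the Smad2_KO2 libraries 66.92, 59.99, 57.25 and 50.32. All knockout libraries exceeded all WT libraries (0.64 ± 0.15 SE and 0.54 ± 0.15, limma, adjusted p = 0.00244 and 0.00956), though DESeq2's Wald test did not call it. The matched Ctrl interval read 28.3 for WT, 50.8 for Smad2_KO1 and 51.9 for Smad2_KO2.

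A weak intragenic Aldh1a2 interval, chr9:71276349-71276549, had the largest change at the gene, with WT values of 2.65 to 9.66, Smad2_KO1 values of 10.93 to 18.14 and Smad2_KO2 values of 6.99 to 14.59 (1.43 and 1.10, limma, adjusted p = 0.00542 and 0.0311). The groups overlapped, and the call was lost without any 1 of Smad2_KO2 replicates 2 and 3 and WT replicates 1, 3 and 4 (higher adjusted p up to 0.11). The single fall, at chr9:71227447-71227647, 11.8 kb into the gene, went from 98.1 ± 13.4 to 67.6 ± 17.1 and 71.9 ± 10.6. It too was lost without any 1 of 5 libraries (Smad2_KO1 replicate 2, Smad2_KO2 replicates 1 and 2, WT replicates 1 and 4, up to 0.16).

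The Cyp26 genes code for the enzymes that clear retinoic acid. They had 1 rise and 1 fall in Paused, neither of which held on leaving out each library. Cyp26a1 and Cyp26c1 lie side by side, and 11 of their Paused intervals fell in both windows. The Cyp26a1 window had 12 intervals and no call by limma in both clones. No interval in the tables lay closer to the Cyp26a1 gene body than 1.71 kb in Paused and 1.60 kb in Ctrl, so the promoter printed above had no value of its own. The nearest upstream interval (chr19:37695829-37696029) read 173 ± 12.1 for WT, 168 ± 5.47 for Smad2_KO1 and 171 ± 6.57 for Smad2_KO2, and was not called.

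Cyp26c1 had 1 call of 15, a rise at chr19:37663849-37664049 that lies in the neighbouring gene Exoc6, named after its values were seen. It went from 25.7 ± 3.24 to 37.0 ± 1.27 and 41.7 ± 8.29, and the call was lost in 8 of 12 leave-one-out refits (without any Smad2_KO1 library, Smad2_KO2 replicate 1 or WT replicates 2, 3 or 4, adjusted p up to 0.0808) and under DESeq2 size factors. The strongest Cyp26c1 interval, 1.46 kb past its start, read 199 ± 23.4, 196 ± 9.14 and 190 ± 15.5 and was not called.

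At Cyp26b1, 1 of 14 Paused intervals was called, also named after its values were seen. The interval chr6:84616321-84616521, at -22.6 kb, fell from WT values of 24.83, 47.23, 25.89 and 25.16 to Smad2_KO1 values of 12.69 to 21.60 and Smad2_KO2 values of 10.10 to 21.88. No knockout library reached the lowest WT library (-0.73 and -0.88, limma, adjusted p = 0.0357 and 0.0117), and the call was lost without Smad2_KO1 replicate 1, Smad2_KO1 replicate 2, Smad2_KO2 replicate 3 or WT replicate 2 (up to 0.17). The start interval of Cyp26b1 was weak, at 13.5 ± 5.10, 17.9 ± 3.25 and 19.9 ± 2.51, and its strongest interval, 3.37 kb into the gene, read 191 ± 23.2, 175 ± 5.22 and 183 ± 13.4. Neither was called.

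The Ctrl interval that brought the list forward lies at chr6:84498066-84498266, 73.2 kb from the Cyp26b1 gene body and 43.2 kb beyond its window, so it is not counted among the members. It read 0, 2.69, 6.57 and 1.08 in WT, 12.82, 20.56, 9.37 and 15.02 for Smad2_KO1, and 11.02, 18.20, 12.75 and 13.08 for Smad2_KO2. No Paused interval overlaps it, the nearest being 1.25 kb away, and 0 of 15 Ctrl intervals in the Cyp26b1 window met the call. At the window edge in Paused, the outermost counted interval, 29.98 kb from Rarg, averaged 33.7 for WT, 22.1 for Smad2_KO1 and 19.0 for Smad2_KO2, and the nearest uncounted one, 30.99 kb from Stra8, 33.5, 45.1 and 41.9.

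Stra6, the uptake receptor for retinol, had 3 rises and 2 falls among 37 tested Paused intervals, and its window sum was not called (1697 ± 59.0, 1679 ± 35.8 and 1647 ± 72.2). At chr9:58079148-58079348, at -49.8 kb, inside the long Stra6 gene record and inside Ccdc33, WT read 5.40, 6.44, 7.55 and 11.92. Smad2_KO1 read 26.61, 22.66, 25.05 and 24.83, and Smad2_KO2 read 21.97, 23.25, 17.96 and 15.32. The 8 knockout libraries were all above the 4 WT libraries (1.60 ± 0.26 SE and 1.26 ± 0.26, limma, adjusted p = 4.51e-05 and 0.00081). Its matched Ctrl interval showed no such gap, at 11.1 ± 6.38 for WT, 12.4 ± 7.63 for Smad2_KO1 and 9.39 ± 2.13 for Smad2_KO2. Whether the knockout difference itself differed between Ctrl and Paused was not tested, since the tables were normalized separately.

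A second rise in the Stra6 window lay near the first, at chr9:58083372-58083572 (-45.6 kb), and also inside Ccdc33. There WT was at 10.1 ± 1.93, Smad2_KO1 at 22.4 ± 3.15 and Smad2_KO2 at 23.6 ± 4.47 (1.08 and 1.14, limma, adjusted p = 0.00161 and 0.000982). Which of the overlapping genes either rise belongs to was not tested. Near the transcription starts of the short forms, chr9:58136130-58136330, 1.57 kb past the nearest start, fell. WT read 98.23, 96.61, 77.68 and 76.81, Smad2_KO1 50.36, 44.40, 69.97 and 44.69, and Smad2_KO2 46.94, 45.74, 55.01 and 44.85, again without overlap (-0.74 and -0.84, limma, adjusted p = 0.000667 and 0.00017). The matched Ctrl interval read 58.3 ± 8.61, 42.4 ± 5.79 and 37.6 ± 7.36. Calls in both directions thus lay within the Stra6 gene record.

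Crabp2, the carrier of retinoic acid, had 2 intervals in its own body, and neither was called: the stronger one (chr3:87952459-87952659) read 141 ± 8.05 for WT, 147 ± 14.1 for Smad2_KO1 and 151 ± 11.3 for Smad2_KO2. All 5 calls in its window (2 higher, 3 lower) lay outside the gene. The strongest of them, chr3:87974378-87974578, stands in Nes, which codes for the intermediate filament protein nestin. It fell from 633.6, 582.9, 585.8 and 651.6 in WT to 506.2 to 521.4 in Smad2_KO1 and 493.4 to 526.2 in Smad2_KO2 (-0.26 and -0.25, limma, adjusted p = 0.00972 and 0.0116). The largest fall in size was at chr3:87983294-87983494, at the far edge of the window. WT read 72.32, 76.21, 125.2 and 123.2 there, so WT replicates 3 and 4 stood above replicates 1 and 2, and both knockouts lay lower, at 38.06 to 64.56 and 31.96 to 60.62 (-0.96 and -1.08, limma, adjusted p = 0.00033 and 7.81e-05).

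Rarb, a receptor that is itself induced by retinoic acid, held the largest change of all members. The interval chr14:16554420-16554620 lies inside the gene, 21.0 kb downstream of the annotated start. In Paused, WT read 4.32, 4.29, 4.32 and 7.95, Smad2_KO1 35.16, 24.47, 33.69 and 20.86, and Smad2_KO2 25.97, 23.25, 25.82 and 22.97. Recovered whole reads were 4 to 6 per WT library and 21 to 39 per knockout library, so WT was near the lowest level the depth can resolve and no knockout library came near it. The means were 5.47 times WT in Smad2_KO1 and 4.69 times in Smad2_KO2 (log2 change 2.26 ± 0.26 SE and 2.07 ± 0.26, limma, adjusted p = 1.85e-07 and 8.12e-07). Of 23477 intervals called higher in Paused, 28 had a larger change by the smaller of the clones. The highest adjusted p over the 12 leave-one-out refits was 1.90e-05. In the authors' deposited table, the same interval had a log2 fold of 1.78 and a false discovery rate of 4.59e-08. The matched Ctrl interval read 2.19 to 5.34 in WT, 12.18 to 23.65 in Smad2_KO1 and 13.81 to 20.04 in Smad2_KO2.

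The Rarb promoter printed above lies under a strong interval (chr14:16575488-16575688) that was not called: 193 ± 28.7 for WT, 198 ± 11.1 for Smad2_KO1 and 185 ± 21.3 for Smad2_KO2 in Paused (0.04 and -0.06, limma, adjusted p = 0.801 and 0.741), and 164 ± 17.4, 161 ± 13.6 and 158 ± 7.64 in Ctrl. Around it, 5 of 31 tested Paused intervals rose and 1 fell, and 24 of the 31 had both clones above WT, as had 54.0% of all tested intervals on the authors' scaling, which shifts the median of all intervals upward as given above. At chr14:16569734-16569934, 5.64 kb past the start, all knockout libraries (24.97 to 32.78) exceeded all WT libraries (10.59 to 19.43), with changes of 0.99 and 0.90 (limma, adjusted p = 0.00117 and 0.00295), though DESeq2's Wald test did not call it. An interval at -70.3 kb, still inside the long Rarb gene record, chr14:16645671-16645871, rose from 10.73 to 13.24 in WT to 14.90 to 34.44 and 20.21 to 26.25 (0.95 and 0.96, limma, adjusted p = 0.00631 and 0.0061). It lost the call without Smad2_KO1 replicate 2 (0.0542). Its Ctrl match read 20.7, 22.0 and 27.4.

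**Figure D4:**
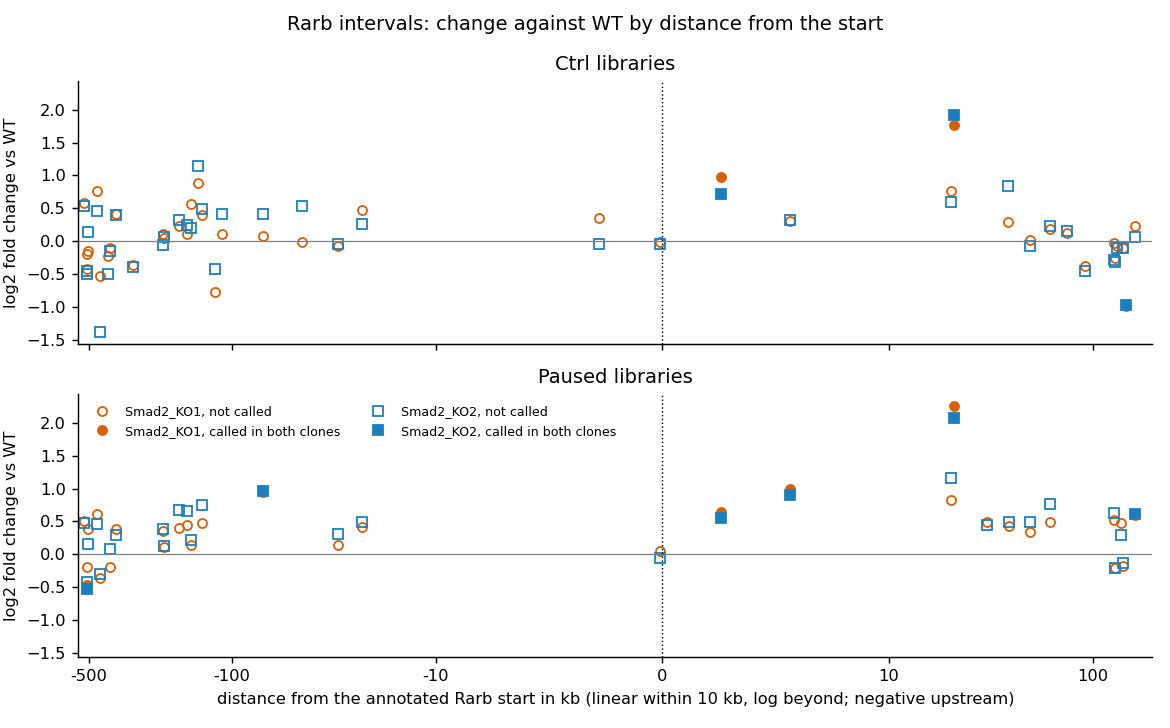
Log2 fold change against WT of each tested interval in the Rarb window by distance from the annotated start (linear within 10 kb, log beyond), for Smad2_KO1 (circles) and Smad2_KO2 (squares), in Ctrl (top) and Paused (bottom). Filled symbols were called in both clones. The interval at 21.0 kb reached 2.26 and 2.07 in Paused, and the start interval lay at 0.04 and -0.06.

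Rara, the most broadly expressed of the receptors, had 7 calls among 40 tested Paused intervals, 5 lower and 2 higher. The 3 falls that held in all refits lie at its ends or within it. At chr11:98927712-98927912, at its upstream end, WT read 117.7, 115.9, 104.7 and 75.49, against 69.11 to 72.50 in Smad2_KO1 and 65.64 to 70.91 in Smad2_KO2 (-0.51 and -0.55, limma, adjusted p = 0.00656 and 0.00338). At chr11:98942079-98942279, 2.47 kb past the nearest start, the means were 251 ± 37.7, 179 ± 33.9 and 180 ± 21.2 (-0.49 and -0.47, limma, adjusted p = 0.00224 and 0.00328), with 1 knockout library of each clone inside the WT range. At chr11:98975382-98975582, just beyond the gene end, they were 172 ± 16.1, 128 ± 13.3 and 128 ± 10.4 (-0.42 and -0.43, limma, adjusted p = 0.00654 and 0.00569). No library overlapped there. The start interval of Rara read 391 ± 51.8, 340 ± 9.56 and 331 ± 23.2 and was not called (adjusted p = 0.114 and 0.055, limma).

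Rarg, which is prominent in stem cells and early embryos, had 3 falls and no rise among 27 tested Paused intervals. Its start interval chr15:102246389-102246589 read 420 ± 31.3 for WT, 360 ± 18.9 for Smad2_KO1 and 358 ± 16.0 for Smad2_KO2 (-0.22 and -0.23, limma, adjusted p = 0.0499 and 0.0434). It was the 1 start interval of 10 called, and it was lost on leaving out any single library except WT replicate 2 (up to 0.16) and under 5 other refits. The strongest Rarg interval, chr15:102235687-102235887 near the gene's end, read 455 ± 23.0, 394 ± 16.9 and 380 ± 35.6. There all knockout libraries lay below all WT libraries, but only Smad2_KO2 passed (-0.21 and -0.26, limma, adjusted p = 0.063 and 0.0196). The other 2 falls, at chr15:102222419-102222619 in Itgb7 and chr15:102287502-102287702 upstream, were also lost in several leave-one-out refits (5 and 8 of 12).

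Stra8, the meiosis gene, had 3 rises and 1 fall among 21 tested Paused intervals, all upstream of the gene. The fall at chr6:34901141-34901341 lies at -19.7 kb, inside Wdr91. WT read 149.0, 120.2, 130.6 and 121.8, Smad2_KO1 83.62, 74.31, 82.06 and 71.51, and Smad2_KO2 85.90, 73.49, 69.60 and 67.83. The lowest WT library was above the highest knockout library (-0.73 ± 0.12 SE and -0.81 ± 0.12, limma, adjusted p = 6.73e-05 and 1.98e-05). In Ctrl, which was normalized separately, the matched interval read 215 ± 25.8, 171 ± 26.7 and 147 ± 27.0. The rises nearby were weaker, from 43.7 to 64.7 and 62.8 at -28.5 kb, from 30.6 to 44.3 and 44.2 at -17.3 kb, and from 56.4 to 79.1 and 80.9 at -7.16 kb. Each was lost without at least 1 library (Smad2_KO1 replicate 2 for the first, 7 libraries for the second and WT replicate 1 for the third), with higher adjusted p-values up to 0.14. The strongest Stra8 interval, 1.18 kb into the gene, did not pass (192 ± 15.2, 215 ± 16.2 and 203 ± 26.9).

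By position, 1 of 10 tested start intervals was called in Paused, 11 of 84 in gene bodies (7 higher) and 25 of 123 outside (13 higher, 12 lower). The 13.9% of all tested intervals given above was not split by position, so no class is set apart by these counts. The start intervals include none for Crabp2, which had no annotated start in the promoter table.

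Across treatments, 176 intervals matched one to one at 50% reciprocal overlap. Past the threshold in both tables were 8 of them, which is 8 of the 12 such Ctrl intervals and 8 of the 30 Paused calls with a match, given as a description since Ctrl values chose the list: 5 higher (1 at Aldh1a2, 2 at Rarb, and 1 each in the Crabp2 and Stra8 windows) and 3 lower (at Aldh1a2, Rara and the Crabp2 window). The largest Ctrl fall was at Stra6, chr9:58131847-58132047, at -2.13 kb, with means of 41.6 for WT, 14.8 for Smad2_KO1 and 19.3 for Smad2_KO2. Its Paused match read 23.75, 18.25, 44.23 and 42.38 in WT, 10.45, 24.47, 21.60 and 15.89 for Smad2_KO1, and 9.99, 10.50, 20.21 and 8.75 in Smad2_KO2. WT replicates 3 and 4 stood above replicates 1 and 2 there as well, and Smad2_KO1 missed the threshold (adjusted p = 0.0505, limma).

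The clones were also compared with each other. By limma 0 of 217 Paused and 0 of 226 Ctrl member intervals were called between Smad2_KO1 and Smad2_KO2 (0.0% of all tested intervals in both tables). At an unadjusted p under 0.05 were 5 (2.30%) and 9 (3.98%), beside 1.97% and 3.28% of all tested intervals. The absence of calls does not show that the clones were alike. Neither edgeR nor DESeq2's Wald test called any.

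The windows of 19 other genes of retinoid metabolism and receptor function held 54 Paused calls among 393 tested intervals (13.7%), 30 higher and 24 lower (20 and 37 with DESeq2 size factors, 6 and 26 by DESeq2's Wald test), beside the 13.9% of all intervals given above. The corepressor gene Ncor1 and the coregulator gene Nrip1 had 6 calls each (all higher), Stra6l and Rxrg 5 each and Dhrs9 4. Window sums were called higher for 2 genes, Ncor1 and Nrip1, and lower for 6, among them Rxrb, Lrat, Rdh11 and Stra6l. Ncor1 was called in 4 of 12 leave-one-out refits, Rdh11 in 5, and Nrip1 and Lrat in 9 each. With DESeq2 size factors both higher calls were lost and 10 of the 19 windows were called lower. Under that setting about 10940 of all 20561 gene windows were called in either direction, so the count of 10 does not set the list apart. The share of all windows called lower under it is not given here. Lower calls at Rxrb, a retinoid X receptor, and Stra6l, a relative of Stra6, held in all 12 leave-one-out refits and all 5 other scalings and tools. The Rxrb window went from 1804 ± 196 to 1558 ± 33.4 and 1528 ± 31.5 (-0.21 and -0.23, limma, adjusted p = 0.0013 and 0.000277). The Stra6l window went from 2230 ± 118 to 1941 ± 35.3 and 1949 ± 53.5 (-0.20 and -0.19, limma, adjusted p = 0.000365 and 0.000422). These sums reach 30 kb past each gene and may hold signal of other genes.

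Among 14 genes known to respond to retinoic acid, 39 of 292 tested Paused intervals were called (13.4%), 23 higher and 16 lower (16 and 24 with DESeq2 size factors, 3 and 18 by the Wald test). Bhlhe40 had 5 calls, Meis1 and Meis2 4 each, and Hoxb1 and Cdx1 3 each. By window sum Tgm2 was called higher (in 9 of 12 leave-one-out refits), and Hoxb1 and Bhlhe40 lower (Bhlhe40 in 7 of 12 and under 3 of 5 other scalings and tools). The fall of the window of Hoxb1, a direct target of the receptors in the hindbrain, held in every leave-one-out refit and scaling. It went from 1122 ± 80.8 in WT to 931 ± 37.3 in Smad2_KO1 and 944 ± 41.9 in Smad2_KO2 (-0.27 and -0.25, limma, adjusted p = 0.000148 and 0.000313). This window too may hold signal of neighbouring genes. With DESeq2 size factors Tgm2 was lost and 7 of the 14 windows were called lower. About 10940 of all 20561 gene windows were called in either direction under that setting.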

How the data were processed

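ATAC-seq was read in 24 libraries, 4 per line and treatment. The submitters' processing notes name FastQC, Trim Galore, Bowtie2 2.4.1, MACS3 3.0.3, DiffBind 3.16.0 and build mm10, without role or order. Duplicate handling and Tn5 read shifting are not given in the sources used here. The deposited tables, 1 per treatment, hold normalized signal: the reads of each interval over a library-wide factor, as read from the values. Low values stepped by whole reads in all columns, which gave depths, though in 4 columns the step was too near 1 to be told from rounding. The authors' deposited log2 fold and p-value columns (with the false discovery rate) compare the 8 knockout with the 4 WT libraries.

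Genes were placed with a RefSeq table of GRCm38.p6, the assembly behind mm10. limma 3.58.1 (lmFit, contrasts.fit, eBayes with trend; R 4.3.3) was fitted to log2(value + 1) of all 12 libraries of a table, over all intervals with at least 4 libraries at 10 or more, with Benjamini-Hochberg adjustment over the whole table. Fold changes on this scale understate the change of weak intervals. Gene windows were summed and fitted likewise over all protein-coding genes. DESeq2 1.42.0 and edgeR 4.0.16 were run on recovered reads as alternatives, and the limma script was tested on simulated data. There the rule of both clones recovered 32% of log2 changes of 1 in Paused and 26% in Ctrl. For log2 changes of 2 it recovered 80% and 92%. An interval that was not called may therefore still differ. Members and lists were chosen with earlier results of these data known. Intervals named are the strongest per gene, the 6 largest changes called per table and, after their values were seen, the calls that held in all refits and single calls. Tables were normalized separately, so Ctrl and Paused were not tested against each other. Some genes of the lists are counted but not reported by name here.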

Additional observations from a re-analysis of the deposited data

Results flagged for a closer look

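Among 183 groups of 4 libraries, 7 held 1 library whose gap to the others passed Dixon's limit, where about 1 in 20 groups does so by chance (9.15 here). At the Aldh1a2 start interval in Ctrl, WT replicate 1 read 116.4 against 91.36 to 94.90 in the others, and Smad2_KO2 replicate 3 read 89.24 against 117.4 to 119.8. At the Aldh1a2 interval 88.0 kb downstream, Ctrl Smad2_KO1 replicate 4 read 39.27 against 53.86 to 55.52. In Paused, WT replicate 4 read 7.95 at the Rarb interval 21.0 kb downstream of the start, against 4.29 to 4.32 in the other WT libraries, and was still below every knockout library. At the Rarb start interval Smad2_KO2 replicate 4 read 216.6 against 172.5 to 176.2. At the strongest Stra6 interval Smad2_KO1 replicate 1 read 183.4 against 203.6 to 205.7, and at the Stra6 interval at -2.11 kb from a start Smad2_KO2 replicate 3 read 20.21 against 8.75 to 10.50.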

How the results depend on the processing

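The settings differed from those of the report by 1 choice each. The Paused count of 37 member intervals was 4 at an absolute log2 change of at least 1, 20 in 10 kb windows, 71 in 100 kb windows, 64 with the 8 knockout libraries as 1 group and 17 without both knockout replicates 2 (this last chosen after seeing the data). It ran from 23 to 36 on leaving out 1 library. The Ctrl count of 15 was 2, 9, 28 and 40 under the first 4 of these, 31 with knockout libraries of 1 number averaged, and 11 to 16 on leaving out 1 library. The 4 Paused windows became 0 at an absolute log2 change of at least 1 and ran from 3 to 4 on leaving out 1 library. Blocking on the replicate number gave 43 in Paused, 18 in Ctrl and 4 windows. The labels do not say that the numbers pair libraries. Same-numbered libraries of different lines deviated with a mean correlation of 0.03 in Ctrl and 0.05 in Paused. Between the Paused knockout lines it was 0.105 (0.034 to 0.187, against a mean of -0.04 for different numbers), and 7 of 8 knockout libraries correlated best with their own number there, against 3 of 8 in Ctrl. Chi-square per degree of freedom between those lines was 1.0014 to 1.0738 for the same number and 1.0987 to 1.4875 for different numbers. As not every correlation was over 0.1, the numbers were not taken as pairs in the main fit. Same-numbered Paused knockout libraries were nonetheless more alike, so agreement of the clones may not be independent. The 37 Paused calls kept their sign on leaving out each library, while small changes of results that were not called can change sign with the scaling. The 0 calls between clones stayed at 0 in each refit. Depth limits the weak intervals most: WT held 4 to 6 reads at the Rarb interval with the largest change.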

Other observations

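Over the 12 Paused libraries, the genes whose log2 window sums followed Cyp26b1 most closely were Tank (Pearson r = 0.929), Gm6583 (0.91) and Ccl22 (0.907), of 20537 genes at least 1 Mb away or on another chromosome. These correlations are across libraries that share depth and line, and are given as a description. In the authors' deposited tables, 58 of 222 Paused member intervals had a false discovery rate under 0.05 (28 higher, 30 lower), including all 37 called here. Of all 272268 Paused intervals, 58821 did (34417 higher, 24404 lower). As a description, 30 of 234 Ctrl member intervals did (13 higher, 17 lower), including all 15, beside 36574 of all 299780.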
